A study of Mus musculus with 6 samples.

Results

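The cytosolic ribosomal protein genes encode the proteins of the ribosome that translates nuclear mRNAs. They were taken as the protein-coding genes of the GENCODE M21 annotation with symbols of the Rpl, Rps, Rplp or Rpsa type, which gave 84 of the 55487 genes counted. Of these, 52 encode proteins of the large subunit and 32 proteins of the small subunit. A further 4 genes with matching symbols, among them Rps4l, are annotated as pseudogenes and were left out. Fau, whose product is a fusion of a ubiquitin-like protein with a ribosomal protein, and Rack1, a small-subunit protein with another kind of name, lie outside the symbol rule and are given beside the members.

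Each ribosome holds a single copy of nearly every one of these proteins, so cells make them in matched amounts. Most of their mRNAs begin with a C followed by a run of pyrimidines, the terminal oligopyrimidine (TOP) motif, through which mTORC1 signalling and the protein Larp1 set how strongly they are translated when nutrients change. Red cell precursors are known to be sensitive to a shortage of ribosomal proteins: loss of 1 copy of several of these genes causes Diamond-Blackfan anaemia in humans.

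The RNA came from megakaryocyte-erythroid progenitors, the shared precursors of red cells and platelets, which were sorted from bone marrow. All mice were wild type, of the C57BL/6 strain and 8 weeks old. The control group and the group fasted for 6 h had 3 libraries each, and the question put by the submitters was how fasting acts on the formation of red cells. The labels do not say whether a library is 1 mouse or a pool, so the tests measure the spread between these libraries, which may in part be technical. The labels' extraction protocol describes ground tissue and does not say how sorted cells were handled, so what material entered the RNA preparation is known only from the cell type label and the submitters' description of the design.

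Total counts per library ran from 12797144 to 30246110, with the 3 fasted libraries all below the 3 control libraries. All 9 erythroid markers were above background, with a summed level of 2146 to 3784 CPM (counts scaled to a common library size) in control and 3147 to 4671 CPM in fasted libraries, led by Car1. Of the 6 megakaryocyte markers 4 passed the filter used for testing, with sums of 422 to 544 CPM in control and 250.4 to 404 CPM in fasted libraries. The 8 granulocyte and monocyte markers, led by Mpo, summed to 3395 to 16923 CPM in control and 862 to 3875 CPM in fasted libraries, and none of the 8 was at 0. This sum exceeded the erythroid sum in all 3 control libraries and in fasted library 1, by most in control libraries 2 and 3 (10958 against 3784 CPM and 16923 against 2146 CPM). B and T lymphocyte markers summed to 231 to 314 CPM in control and 186 to 445 CPM in fasted libraries. Mast cell and basophil markers summed to 115 to 219 CPM in control and 57.0 to 119 CPM in fasted libraries. Markers of stem and multipotent cells summed to 171 to 219.8 CPM in control and 221 to 378 CPM in fasted libraries. This set was led by Flt3, and 1 of its 4 markers passed the filter, so its sum does not measure stem cells alone. The part of these other cells in the results for the ribosomal protein genes was not tested.

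Starts of 64 of the 84 genes were in the RefSeq promoter table (GRCm38.p6). At 13 of these 64 starts (20.3%) the annotated first base was a C followed by at least 4 more pyrimidines, against 800 of 26961 other genes (2.97%). The 8 below are shown because they let the TOP motif be read in genes of both subunits, with runs from 5 to 13 bases. Each is 30 bases long, with 10 bases before the annotated start, and the capitals mark the pyrimidine run that begins at that start:
Rps6: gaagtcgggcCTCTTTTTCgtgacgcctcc
Rps10: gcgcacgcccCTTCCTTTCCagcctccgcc
Rps15a: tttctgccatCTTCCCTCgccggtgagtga
Rps27: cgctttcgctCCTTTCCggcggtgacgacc
Rpl15: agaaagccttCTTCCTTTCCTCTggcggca
Rpl35: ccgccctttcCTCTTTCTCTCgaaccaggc
Rpl35a: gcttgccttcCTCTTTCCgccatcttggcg
Rplp2: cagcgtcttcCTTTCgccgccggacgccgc

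In GRCm38.p6 coordinates the windows on the minus strand are chr4:86857348-86857377 (Rps6), chr17:27635225-27635254 (Rps10), chr7:118116128-118116157 (Rps15a), chr3:90213629-90213658 (Rps27), chr14:18270967-18270996 (Rpl15) and chr2:39005112-39005141 (Rpl35). Those on the plus strand are chr16:33056472-33056501 (Rpl35a) and chr7:141447641-141447670 (Rplp2). The run was 13 bases long in Rpl15 and 5 bases in Rplp2. In several of the 8 windows the pyrimidines also reach upstream of the annotated base, so the annotated start need not be the base where transcription begins. With that position loosened, CTTTC or CTTCC lay on the gene's strand between 10 bases before and 40 bases after the start in 40 of the 64 genes (62.5%), against 17.3% of the other genes. On the opposite strand the shares were 25% and 20.8%. CCGGAAG, on either strand of the 300 bases around the start, was present in 40.6% of the 64 and in 9.85% of the other genes, and TATAAA in 10.9% and 15.7%. A match describes the letters in the window and was not tested as a site.

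The 84 genes together held a similar share of all counts in both groups. The share was 3.31%, 4.75% and 4.06% for controls 1 to 3 and 4.08%, 4.47% and 4.34% for the fasted libraries in the same order. The means were 4.04% ± 0.72 (SD, n = 3) and 4.30% ± 0.20 (SD, n = 3), and every fasted library lay inside the control range. In counts this was 521980 to 1249935 per library. In bulk RNA, fewer cells of a type and less RNA per cell cannot be told apart.

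Levels were compared between genes as CPM per kb of exonic length, averaged over the 6 libraries. Rplp0 (chr5:115559467-115563727, GRCm38, plus strand), which encodes the base of the ribosomal stalk, was the highest at 1580 CPM per kb. Rpl4 at 1115 CPM per kb, Rpl32 at 1032 CPM per kb and Rps3a1 at 962 CPM per kb were also among the 5 highest. The median of the 80 genes that passed the filter was 268 CPM per kb, and 63 of the 84 were above 100 CPM per kb. Small-subunit genes had a median of 424 CPM per kb (31 genes) and large-subunit genes of 179 CPM per kb (49 genes). Annotated exonic bases outside the coding sequence can lower this measure, since all exonic bases of every isoform are in the length. Rps24 has 6256 exonic bases for a coding sequence of 399, and its level of 70.2 CPM per kb ranked 68 of 84.

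**Figure D1:**
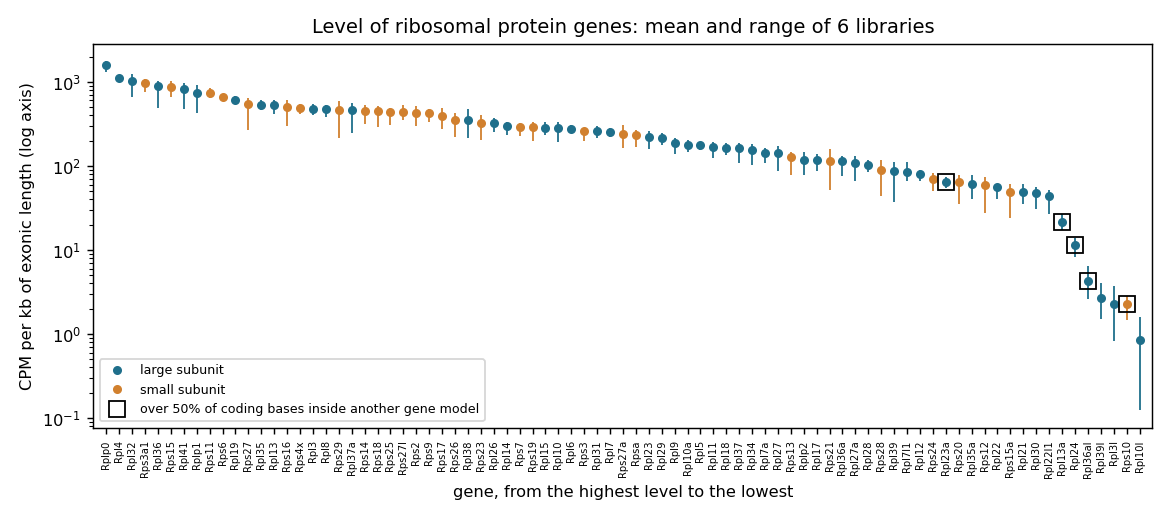
CPM per kb of exonic length (log axis) of 81 of the 84 genes, in order from the highest to the lowest, where points are means of 6 libraries and bars run from the lowest to the highest library. Most genes lie above 100 CPM per kb, and 4 of the 7 lowest (Rpl13a, Rpl24, Rpl36al and Rps10) have a square, which marks genes with over 50% of their coding bases inside another annotated gene model.

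Rps10 (chr17:27630418-27636669, minus strand), a small-subunit gene on the list of anaemia genes, stood far below its partners. It had 96, 107 and 100 counts in controls 1 to 3 and 70, 103 and 74 counts in the fasted libraries. Another gene model, RPS10-NUDT3, covers 92.1% of its coding bases and was listed at 0 in all 6 libraries. Its processed pseudogene Rps10-ps2 was listed at 489 to 1190 counts, more than Rps10 itself in every library. Rpl24, Rpl13a and Rpl36al were of the same kind, with 83.4%, 97.5% and 95.3% of their coding bases inside the models Gm28037, Gm45713 and Gm49383, each at 0 in every library. Their levels were 11.4, 21.8 and 4.30 CPM per kb. Rpl23a, with a level that ranked among the lower genes, was the fifth gene with over 50% overlap. Its overlap, 55.3% of its coding bases, lay on the opposite strand. Rps10, Rpl24, Rpl13a and Rpl36al were covered on their own strand. The values of these 5 genes are therefore uncertain, since how reads in shared exons were counted is not given in the sources used here.

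Copies elsewhere in the genome limit the other genes as well. In the coding sequence of 60 of the 84 genes at least 80% of all 50-base words also occur in another annotated transcript, and in 30 genes all of them do. Rpl3l and Rpl39l were among the 3 genes that shared none. The 294 named ribosomal protein pseudogenes held 20050 to 41613 counts per library, or 0.14% ± 0.03 of all counts in control and 0.16% ± 0.02 in fasted libraries (SD, n = 3 each). Adding their counts to the genes whose names they carry left the shares of the members within the spread between libraries.

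The 4 genes that were not tested had mean counts under 5 times the level of background reads, estimated from odorant and vomeronasal receptor genes. They were Rps10 at 2.91 times that level, Rpl39l at 3.28, Rpl3l at 2.77 and Rpl10l at 1.03 times. Just inside the threshold lay Rpl36al at 5.58 times the background, and the next lowest gene tested was Rpl24 at 15.2 times. Rpl3l, Rpl10l and Rpl39l are known for expression in muscle or testis. Rpl3l was listed at 32 to 86 counts, Rpl39l at 30 to 45 and Rpl10l at 2 to 21 counts per library. In CPM Rpl3l and Rpl39l, like Rps10, were higher in every fasted library than in every control library. At these levels near the background the difference was not tested in the restricted fit. Of the genes tested there, 27.3% had groups that did not overlap, in either direction. Background at the receptor rate over all exons would make up 3.90% to 8.59% of counts in control libraries. In fasted libraries it would make up 11.5% to 14.6%. The part of background in the values of Rpl3l, Rpl39l and Rps10 was not tested.

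After 6 h of fasting no ribosomal protein gene was called. With edgeR's quasi-likelihood test and Benjamini-Hochberg adjustment, 0 of the 80 genes tested had an adjusted p under 0.05, where 0% of all 10641 genes tested were called. At an unadjusted p under 0.05, 1 of the 80 passed (1.25%) against 2111 of the 10641 (19.8%), and it was lower in fasted libraries, as were 8.3% of all genes. DESeq2 and limma-voom also called 0 of the 80, while DESeq2 called 503 of all genes tested and limma-voom 0. The groups did not overlap in CPM for 1 of the 80 genes, against 27.3% of all genes tested.

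The fitted log2 fold changes of the 80 genes, fasted against control, had a median of 0.14, beside 0.02 for all genes tested, and 70 of the 80 were above 0, beside 52.3% of all genes. The direction turned with the scaling: when all 36508 genes that pass the count filter set the library factors, the median of the members (84 genes) was -0.35 and 4 were above 0, beside 64.6% of all genes in that fit. Those 4 were Rps10, Rpl3l, Rpl39l and Rpl10l, which were below the background threshold of the restricted fit. That scaling put the median of the 10641 genes of the restricted fit at -0.50, with 17.4% of them above 0. Relative to those genes the median of the 80 members was 0.12 higher in the restricted fit and 0.14 higher in the fit of all genes. The fit of all genes called 1 member, Rpl7l1, as lower, where it called 4.97% of the genes it tested, 3.82% as lower. Without control library 1 the median of the members was -0.01 and 35 of 80 were above 0, beside a median of 0.03 and 53.5% above 0 over all genes tested.

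The intervals put a bound on the changes that these libraries leave room for. The 95% interval of the fold change lay within 2-fold either way for 76 of the 80 genes, beside 72% of all genes tested. All 80 lower bounds were above -1, and the highest upper bound was 1.20 on the log2 scale, for Rpl39. Standard errors ran from 0.12 to 0.39 with a median of 0.18. Simulated counts of 10641 genes were drawn for this comparison. The spread between simulated libraries was set by the same fixed value for every gene and was not estimated from these libraries. On these counts the test called 8 of 90 genes changed 2-fold (8.89%) and 101 of 110 changed 4-fold (91.8%). These rates describe that setting, and whether they hold for the 80 genes, at the standard errors given above, was not tested.

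**Figure D2:**
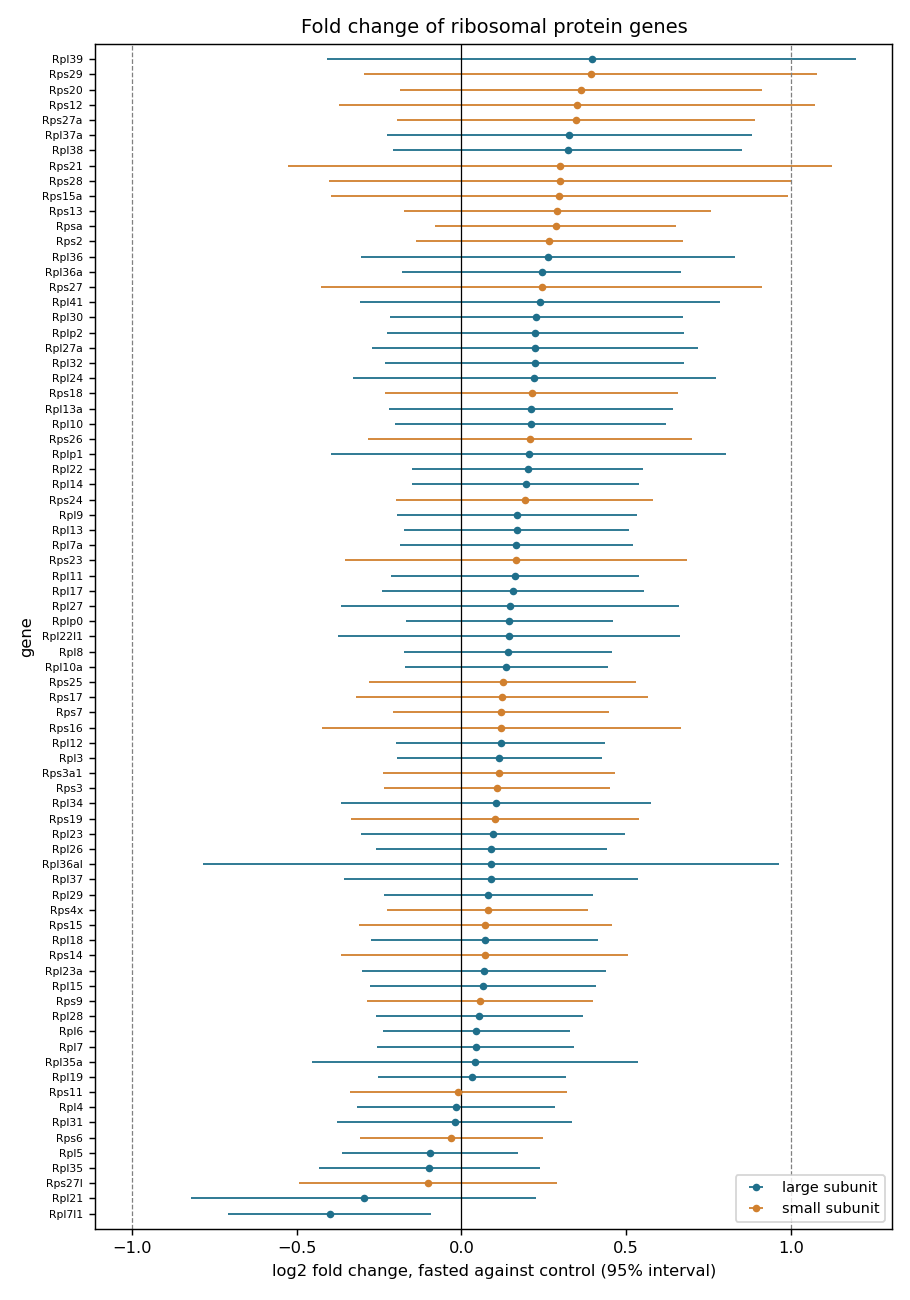
Log2 fold change of 77 of the 80 tested genes, fasted against control, in order of size, with points for the fit restricted by the background, bars for 95% intervals and dashed lines at 2-fold. Of the 77 intervals only that of Rpl7l1, at the bottom, lies wholly on 1 side of 0, and 68 points are above 0, whereas 0 of these 77 are when all genes set the scale.

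Control library 1 stood apart from the other 5 in these genes. Relative to each gene's mean over the 6 libraries, the median of the 80 genes on the log2 scale was -0.45 in control library 1, 0.20 in control library 2 and 0.01 in control library 3. The medians were -0.02, 0.18 and 0.08 in fasted libraries 1 to 3. Control library 1 was the lowest of the 6 libraries for 74 of the 80 genes, and control library 2 was the highest for 42. The spread between genes was also widest in control library 1, with an SD of 0.29, beside 0.11 to 0.15 in the other 5 libraries.

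**Figure D3:**
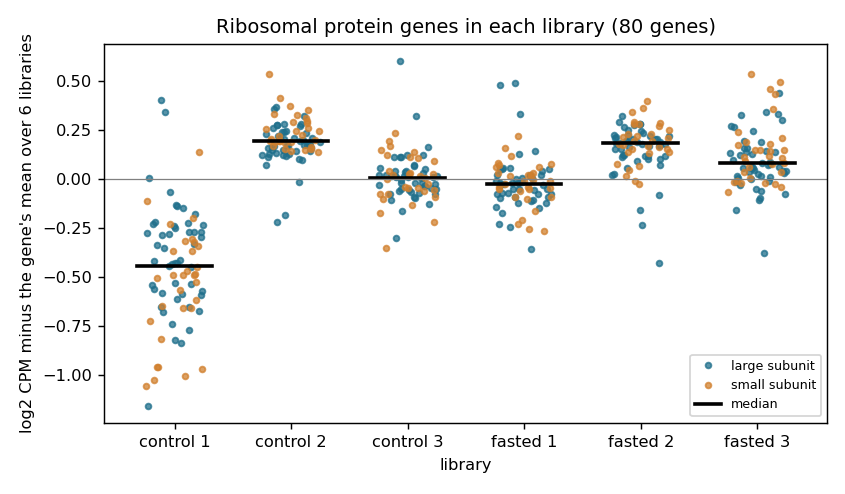
Log2 CPM of the 80 tested genes minus each gene's mean over the 6 libraries, with a point for each gene, coloured by subunit, and a bar for the median of each library. Control library 1 has the lowest median, -0.45, and the widest scatter, while the other 5 medians lie between -0.02 and 0.20.

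The shortfall in control library 1 was graded by the length of the coding sequence. Its median deviation was -0.90 for the 10 genes of up to 300 coding bases, -0.58 for 29 genes of 301 to 450 bases, -0.32 for 18 genes of 451 to 600 bases and -0.27 for 23 longer genes. Other protein-coding genes showed a smaller gradient in that library, with medians of -0.12, -0.02, 0.06 and 0.08 in the same 4 classes. The mitochondrial ribosomal protein genes had a median of 0.12 there. Summed counts of the genes of up to 300 coding bases over those of more than 600 gave 0.12 in control library 1, beside 0.18 and 0.19 in controls 2 and 3. The fasted libraries gave 0.18, 0.17 and 0.20.

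The fold change was also largest in the shortest class. The medians were 0.30, 0.15, 0.10 and 0.11 from the shortest to the longest class, and without control library 1 they were 0.00, -0.06, 0.00 and -0.01. Across the 80 genes, which share the 6 libraries, Spearman's rho between coding length and fold change was -0.40, and 0.06 without control library 1. The 12 genes that share under 50% of their 50-base words with other transcripts had a median deviation of -0.34 in control library 1, beside -0.48 for the other 68. Control library 1 also had the highest total, 30246110 counts, and the lowest granulocyte and monocyte marker sum of the 3 controls, 3395 CPM, and the part of these in the shortfall was not tested.

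**Figure D4:**
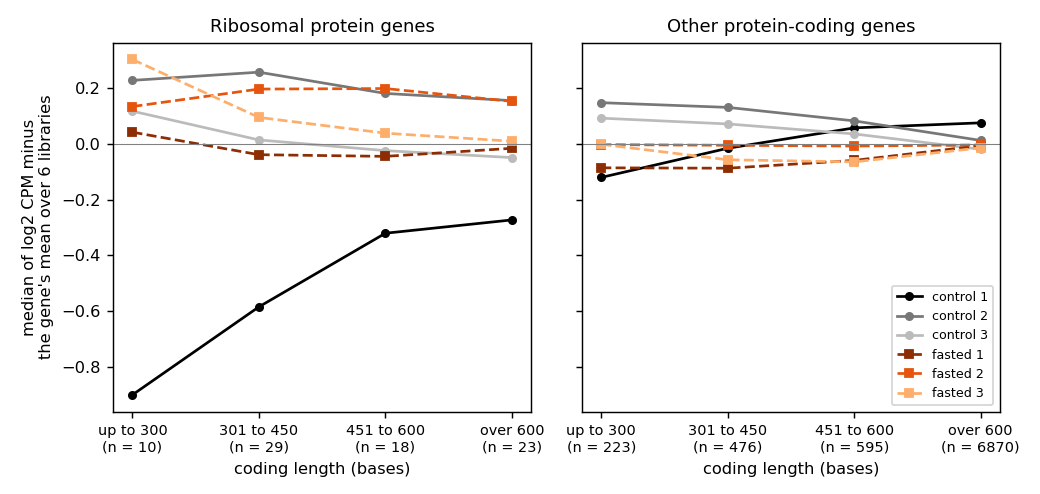
Median of log2 CPM minus each gene's mean over the 6 libraries, for 4 classes of coding length, in ribosomal protein genes (left) and other protein-coding genes (right), with a line for each library. Control library 1 runs from -0.90 in the shortest ribosomal protein genes to -0.27 in the longest, and from -0.12 to 0.08 in other genes.

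The 6 genes with the highest fold changes have coding sequences of 153 to 468 bases, and in each of them control library 1 was the lowest of the 6. Rpl39 (chrX:37082520-37085402, minus strand), a protein of the exit tunnel of the large subunit with a coding sequence of 153 bases, had 53.0, 144 and 128 CPM in control libraries 1 to 3. Its fasted values were 123, 144 and 161 CPM, and it differed by 0.40 ± 0.34 (SE) on the log2 scale, with an adjusted p of 0.55 in edgeR. Rps29 had 149, 335 and 342 CPM in control and 354, 319 and 411 CPM in fasted libraries, a log2 fold change of 0.39 ± 0.30 (SE). The groups overlapped in both genes, and control libraries 2 and 3 lay within the fasted range.

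Rps12 had 56.1, 151 and 106 CPM in control and 126, 139 and 134 CPM in fasted libraries (log2 fold change 0.35 ± 0.31, SE). Rps20 had 143, 301 and 239 CPM in control and 273, 319.9 and 285 CPM in fasted libraries, a log2 fold change of 0.36 ± 0.24 (SE). For Rpl37a the values were 349.7, 719 and 650.4 CPM in control and 684.5, 678 and 794 CPM in fasted libraries, with a log2 fold change of 0.33 ± 0.24 (SE). In each of these 3 genes control library 2 was higher than at least 1 fasted library. Without control library 1 the log2 fold changes were 0.066 for Rpl39, 0.094 for Rps29, 0.050 for Rps12, 0.12 for Rps20 and 0.070 for Rpl37a.

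Rps27a (chr11:29545846-29548109, minus strand) encodes ubiquitin fused to a small-subunit protein. It had 323, 559 and 356 CPM in control and 393, 599 and 583 CPM in fasted libraries, with a log2 fold change of 0.35 ± 0.24 (SE), which was 0.20 without control library 1. Fau had a log2 fold change of 0.17 ± 0.20 (SE), with the groups overlapping, and Rack1 of 0.06 ± 0.13 (SE).

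At the other end lay Rpl7l1 (chr17:46773907-46782672, minus strand), a paralogue of Rpl7. It had 387, 318 and 307 CPM in control libraries 1 to 3 and 229, 276 and 262 CPM in fasted libraries 1 to 3, so that every fasted library was below every control library. On the log2 scale it differed by -0.40 ± 0.14 (SE); the adjusted p of 0.17 in edgeR does not pass. It was highest in control library 1, the library in which 74 of the 80 members were lowest. In the fit of all genes its adjusted p was 0.039, on the scale that put the median of the 10641 genes at -0.50.

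Rpl21 had 205, 142 and 201.5 CPM in control and 203, 119 and 124 CPM in fasted libraries (log2 fold change -0.30 ± 0.23, SE). All of its 50-base words occur in other transcripts. The groups overlapped. Rps27l, Rpl35 and Rpl5 were also among the lowest 6, each with a log2 fold change of -0.10 and with an SE of 0.17, 0.15 and 0.12.

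Of the 19 genes whose human counterparts are known from Diamond-Blackfan anaemia, 18 were tested and Rps10 was not. None of the 18 passed the edgeR test, at an unadjusted p under 0.05 either, beside 19.8% of all genes tested, and 15 had a fold change above 0, beside 52.3%. They had a median of 0.12, which was -0.04 without control library 1 and -0.37 (19 genes) when all genes set the scale. Rps19 (chr7:24884371-24889806, plus strand), the first gene linked to that anaemia, had 919, 1547 and 1425 CPM in control libraries 1 to 3. Its fasted values were 1390.5, 1519 and 1266 CPM, all within the control range, and the log2 fold change was 0.10 ± 0.19 (SE). Its 95% interval ran from -0.33 to 0.54.

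Rps26 had 344, 644 and 544 CPM in control and 519.9, 654 and 593 CPM in fasted libraries (log2 fold change 0.21 ± 0.22, SE). Rps24 had a log2 fold change of 0.19 ± 0.17 (SE) and Rpl35a of 0.04 ± 0.22 (SE). Rps14, whose loss is tied to the anaemia of a chromosome deletion syndrome, had 749, 1262 and 1149.8 CPM in control and 1026, 1235 and 1057 CPM in fasted libraries. Its fasted values lay within the control range, and its log2 fold change was 0.07 ± 0.19 (SE).

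Rpl5 and Rpl11 encode the proteins that, with an RNA of the large subunit, bind Mdm2 and so raise p53 when ribosome assembly fails. Rpl5 had 689, 749 and 693 CPM in control and 608, 699 and 687 CPM in fasted libraries. Rpl11 had 331, 499 and 436 CPM in control and 414, 515 and 489 CPM in fasted libraries, with a log2 fold change of 0.16 ± 0.17 (SE). The ratio of Rpl5 to Rpl11 counts was 2.08, 1.502 and 1.59 for controls 1 to 3. It was 1.47, 1.36 and 1.41 for fasted libraries 1 to 3, so control library 1 was the highest and the groups did not overlap. A two-sided exact permutation test of 3 against 3 cannot give a p below 0.1.

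The stalk, which recruits the elongation factors, is built from the products of Rplp0, Rplp1 and Rplp2. Rplp0 had 2191, 2826 and 2449 CPM in control and 2644, 2900.5 and 2713 CPM in fasted libraries (log2 fold change 0.15 ± 0.14, SE). Rplp1 had 211, 463 and 365 CPM in control and 339, 412 and 445 CPM in fasted libraries (0.20 ± 0.26, SE). Rplp2, whose start is shown above, had a log2 fold change of 0.22 ± 0.20 (SE). Rplp1 over Rplp2 was 1.49 ± 0.18 (SD, n = 3) in control and 1.503 ± 0.079 (SD, n = 3) in fasted libraries. Rplp0 over Rplp1 was 10.4 in control library 1 and 6.10 to 7.80 in the other 5.

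Among other small-subunit genes, Rpsa, which is also described as a laminin receptor, had 535, 819 and 649 CPM in control and 773, 859 and 810.3 CPM in fasted libraries. The log2 fold change of Rpsa was 0.29 ± 0.16 (SE, adjusted p = 0.35 in edgeR). Rps6, the substrate of the S6 kinases, had 954, 1146 and 1036 CPM in control and 1001, 1066 and 1003 CPM in fasted libraries, a log2 fold change of -0.03 ± 0.12 (SE). Rps3, at the entry of the mRNA channel, had a log2 fold change of 0.11 ± 0.15 (SE). Rpl4, Rpl32 and Rps3a1, among the highest per kb, had log2 fold changes of -0.02, 0.22 and 0.11, with SEs of 0.13, 0.20 and 0.16. The low-count genes Rpl13a, Rpl24 and Rpl36al had log2 fold changes of 0.21, 0.22 and 0.09, with SEs of 0.19, 0.24 and 0.39.

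Summed large-subunit counts over summed small-subunit counts gave 1.41, 1.24 and 1.28 for controls 1 to 3 and 1.30, 1.29 and 1.25 for the fasted libraries. The means were 1.31 ± 0.09 (SD, n = 3) and 1.28 ± 0.03 (SD, n = 3), and the groups overlapped. Large-subunit genes (49 tested) had a median log2 fold change of 0.14 and 43 were above 0. Small-subunit genes (31 tested) had a median of 0.12 and 27 were above 0. Without control library 1, 23 of the 49 and 12 of the 31 were above 0, with medians of -0.0040 and -0.021. When all genes set the scale, the medians were -0.35 (52 genes) and -0.34 (32 genes).

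Paralogues of the ribosomal proteins were read by the ratio of the 2 counts in each library, which no scaling factor changes. Rps27 and Rps27l, which encode near-identical proteins and of which Rps27l is a p53 target, were counted at similar levels. All 50-base words of the Rps27 coding sequence occur in other transcripts, beside 48.3% of those of Rps27l, so their relative level is uncertain. Rps27 over Rps27l was 0.98, 1.47 and 1.63 for controls 1 to 3 and 1.96, 1.85 and 1.57 for the fasted libraries, which overlapped. Rps27 had a log2 fold change of 0.24 ± 0.29 (SE). Rpl22 over Rpl22l1 was 2.22, 1.70 and 1.74 for controls 1 to 3 and 2.12, 1.68 and 1.93 for the fasted libraries, which overlapped too. Rpl22 and Rpl22l1 had log2 fold changes of 0.20 ± 0.16 and 0.14 ± 0.23 (SE).

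Rpl7 over Rpl7l1 was 1.54, 2.36 and 2.13 for controls 1 to 3 and 2.91, 2.72 and 2.47 for the fasted libraries, with no overlap between the groups, where Rpl7 itself had a log2 fold change of 0.04 ± 0.13 (SE). Rpl36a exceeded Rpl36al by 19.9 to 46.0 times over the 6 libraries, a ratio that rests on the 71 to 172 counts of Rpl36al. The X-linked genes Rpl10, Rpl36a and Rps4x had log2 fold changes of 0.21, 0.24 and 0.08, with SEs of 0.18, 0.19 and 0.14. Rpl3, the partner of Rpl3l, had a log2 fold change of 0.11 ± 0.14 (SE).

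To ask whether any member moved against the rest of the family, the summed counts of the 84 genes were used as the library size. On this scale edgeR called 0 of the 80 members and 7 of the 10641 genes (0.0658%). At an unadjusted p under 0.05, 1 member (Rpl7l1, log2 fold change -0.58) passed, beside 14.2% of all genes, 7.31% as lower. The members ran from -0.58 for Rpl7l1 to 0.33 for Rpl39. On this scale the SE was 0.25 for Rpl7l1 and 0.26 for Rpl39, beside 0.14 and 0.34 in the restricted fit. The spread was estimated with all 10641 genes, so a call of 0 members does not exclude small shifts within the family. No other tool was run on this scale.

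Other mRNAs of the same pathway were taken from 4 lists, and in the fit restricted by the background edgeR called none of their genes, nor did limma-voom, while DESeq2 called 1, a pseudogene. The fit of all genes called 1 TOP mRNA (3.85%) and 23 mitochondrial ribosomal protein genes (29.9%) as lower. It also called 3 of the chaperone and binding genes below (17.6%) as lower, beside 12.9% of the 10641 genes. Beside the counts that follow, from the restricted fit, 19.8% of all genes tested had an unadjusted p under 0.05 and 52.3% were above 0. Of 26 TOP mRNAs of translation factors and other proteins that are not members, 14 were above 0 with a median of 0.01, and 1 (3.85%) passed at an unadjusted p under 0.05. That gene was Hnrnpa1, which encodes an RNA-binding protein and was the lowest of its list. It had 957, 937 and 980.4 CPM in control and 670.2, 863 and 690.1 CPM in fasted libraries, a log2 fold change of -0.37 ± 0.13 (SE, adjusted p = 0.20 in edgeR), and the groups did not overlap.

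Of 77 mitochondrial ribosomal protein genes tested, 10 were above 0, with a median of -0.17. At an unadjusted p under 0.05, 11 passed (14.3%, beside 19.8% of all genes). Of the 77 genes, 10 passed as lower, beside 8.3% of all genes tested. The 77 genes ranged from -0.54 for Mrpl50 to 0.53 for Mrpl52. Without control library 1 their median was -0.15, and when all genes set the scale it was -0.69 with 23 genes called lower (29.9%), beside a median of -0.50 and 12.9% called lower among the 10641 genes in that fit. The cytosolic and the mitochondrial lists were thus on different sides of 0 in the restricted fit, with medians of 0.14 and -0.17, and both below 0 (-0.35 and -0.69) when all genes set the scale. The difference between the lists was not tested.

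Of 17 genes tested that encode ribosomal protein chaperones, assembly factors or TOP mRNA-binding proteins, 1 was above 0 and the median was -0.15. At an unadjusted p under 0.05, 2 passed (11.8%, beside 19.8% of all genes), Cnbp and Bccip. Both were lower in fasted libraries, as were 8.3% of all genes tested at that threshold. Cnbp, which binds nucleic acids and is tied to the translation of TOP mRNAs, had 2241, 1912 and 2317 CPM in control and 1508, 1762 and 1403 CPM in fasted libraries. On the log2 scale this was -0.47 ± 0.14 (SE, adjusted p = 0.16 in edgeR). Larp1, the TOP mRNA repressor, had 123, 135 and 133 CPM in control and 114, 118 and 107 CPM in fasted libraries. The only gene above 0 was Efl1, a GTPase of large-subunit maturation, at 0.15 ± 0.15 (SE).

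Of the 294 named pseudogenes 103 were tested. Their median was 0.27 and 87 were above 0, with 6 (5.83%) at an unadjusted p under 0.05, beside 52.3% and 19.8% of all genes. The highest was Rpl31-ps15 at 1.22 ± 0.41 (SE) and the lowest Rpl21-ps8 at -0.27 ± 0.30 (SE). Without control library 1 the median was 0.06.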

How the data were processed

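The authors deposited raw counts per gene for 6 libraries, with the exonic length of each gene. Per the submitters' processing notes HISAT2 2.2.1, featureCounts 2.0.1 and GRCm38 were used. Handling of strand and multi-mapping reads is not given in the sources used here. Of 55487 rows 0 name no gene, and 0 columns could not be mapped. All 84 members matched GENCODE M21 by version and length. Members and lists were chosen with earlier results of these data known.

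Genes passing filterByExpr (36508) were restricted to the 10641 with a mean count at or above 5 times the background, taken as the counts per exonic base of 1466 odorant and vomeronasal receptor genes. Counts were scaled by TMM and tested in R 4.3.3 with edgeR 4.0.16 (robust quasi-likelihood, group only, Benjamini-Hochberg over all genes tested, threshold 0.05). CPM use these factors, with 0.5 added before log2 deviations. SE is the fold change over the square root of F. DESeq2 1.42.0, limma-voom (limma 3.58.1), other factors, background subtraction, a 10-fold threshold and each library left out were alternatives. The fit was tested on simulated data.

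Genes named were the 6 highest and 6 lowest fold changes, the 5 highest and 3 lowest levels per kb among genes tested, fixed genes of known role, paralogue pairs, untested members and the extremes of each list, of which a few are not reported here. Cnbp's companion Bccip, Larp1 and Rpl23a were named after their values were seen. Total counts were 12797144 to 30246110 per library. Background made up 0.16% to 0.48% of the members' counts. Over all exons at the same rate it would make up 3.90% to 8.59% of counts in control and 11.5% to 14.6% in fasted libraries.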

Additional observations from a re-analysis of the deposited data

How the results depend on the processing

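The call of 0 members held in every alternative run except the fit of all 36508 genes, which called 1 member lower, and the member median was -0.35 there against 0.14. Leaving out each library in turn gave 0 members called each time and medians of -0.01 (without control library 1) to 0.25 (without control library 2). Scaling by library totals gave 0.11, RLE factors 0.12 and subtraction of the background 0.21. The fit of all genes also gave 1813 genes called (420 higher and 1393 lower) against 0, and 1 TOP mRNA called with a median of -0.50, 23 mitochondrial ribosomal protein genes with a median of -0.69, 3 chaperone and binding genes with a median of -0.69, and a pseudogene median of -0.0088. In the fit of all genes 12.9% of the 10641 genes of the restricted fit were called lower. DESeq2 called 503 genes and 1 pseudogene. Over the libraries left out, 0 to 3 genes were called (3 without control library 1 and 3 without control library 3), and the median of the chaperone and binding genes ran from -0.26 (without fasted library 2) to -0.11. The difference in share of counts, fasted minus control, was 0.26 percentage points, with -0.11 to 0.61 over the libraries left out and 0.56 after subtraction of the background. The difference in the large to small ratio was -0.03, with -0.07 to 0.02. The cause of these shifts was not tested.

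Of 687 values of the 46 genes named under the alternatives, 626 kept their direction. In the fit of all genes the log2 fold change was below 0 for Rpl37a (-0.16), Rps27a (-0.16), Rps12 (-0.13), Rps20 (-0.12), Rps29 (-0.087), Rpl39 (-0.077), Rps3a1 (-0.38), Rpl32 (-0.26), Rplp0 (-0.36), Rpl36al (-0.38), Rpl24 (-0.26), Rpl13a (-0.32), Rps19 (-0.38), Rpl11 (-0.33), Rps14 (-0.41), Rps26 (-0.28), Rps24 (-0.30), Rpl35a (-0.44), Rplp1 (-0.28), Rplp2 (-0.28), Rpsa (-0.21), Rps3 (-0.39), Rack1 (-0.46), Fau (-0.31), Rpl3 (-0.39), Rpl7 (-0.46), Rpl10 (-0.28), Rpl22 (-0.30), Rpl22l1 (-0.34), Rpl36a (-0.26), Rps27 (-0.22), Rps4x (-0.42) and Efl1 (-0.36). With the background subtracted, the side of 0 changed for Rpl4 (0.062), Rpl36al (-0.055) and Rps6 (0.048). At 10 times the background, the side of 0 changed for Rpl4 (0.059) and Rps6 (0.046). Over the libraries left out in turn, the log2 fold change ran from -0.26 to 0.0014 for Rps27l, -0.015 to 0.22 for Rps3a1, -0.11 to 0.035 for Rpl4, -0.17 to 0.52 for Rpl36al, -0.095 to 0.21 for Rps19, -0.12 to 0.18 for Rps14, -0.012 to 0.37 for Rps26, -0.18 to 0.23 for Rpl35a, -0.054 to 0.43 for Rplp1, -0.093 to 0.0041 for Rps6, -0.029 to 0.18 for Rps3, -0.0053 to 0.10 for Rack1, -0.027 to 0.32 for Fau, -0.052 to 0.10 for Rpl7, -0.095 to 0.30 for Rpl22l1, -0.056 to 0.40 for Rps27 and -0.0087 to 0.15 for Rps4x.

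Samples with the same replicate number deviated with correlations of -0.16, 0.13 and -0.27, so the numbers were not read as pairs, and control 1 correlated best with fasted 3 (0.24). With the replicate number as a block the member median was 0.16 and 0 members were called.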
